A study of Mus musculus with 10 samples.

Results

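The genes described here encode the proteasome and the enzymes that attach ubiquitin to proteins or remove it, and they were chosen by name. A probe set was a member where its single gene symbol in the platform annotation began with Psma to Psmg and a digit, Ube1 to Ube3, Usp and a digit, Uch, or Uba and a digit, or was one of a few names given in full, such as Ubb, Trim63 and Fbxo32. The rule took 97 probe sets for 75 genes (76 from chip A, 21 from chip B). The chips hold 13179 probe sets, of which 7542 name 1 gene. The rule uses names and no measured value. The label holds for the names, with the exceptions of Psmc3ip, which encodes a meiotic recombination factor, and Psme3ip1, named for its binding to the activator Psme3: neither is a proteasome subunit.

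Total RNA came from female C57BL/6 mice of adult age, from the pancreas, a muscle, the liver, the hypothalamus and a tissue labelled as white adipose, and was measured on Affymetrix one-colour arrays, with 1 array per tissue on each of 2 chips. All groups share strain, sex and the label adult, no genotype or treatment is named, and the labels do not say whether animals were pooled. The title of that last sample, unlike its source label, speaks of a preconfluent state, and it is called the adipose-labelled sample. With 1 array for each tissue and chip, no replicate error can be given and no comparison is tested, and this number of arrays sets the precision.

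Proteins marked with chains of ubiquitin are degraded by the 26S proteasome. An activating enzyme (E1) charges ubiquitin, a conjugating enzyme (E2) carries it, a ligase (E3) places it on the target, and deubiquitinases take it off again. The proteasome has a barrel, the 20S core, of alpha rings that gate the entrance and beta rings that hold the catalytic sites, and a 19S cap of ATPases that unfold the target and non-ATPases that bind ubiquitin and cut it off. Interferon induces 3 replacement catalytic subunits, Psmb8, Psmb9 and Psmb10, which take the places of Psmb5, Psmb6 and Psmb7 in the immunoproteasome and favour peptides for presentation on MHC class I. Activators of another kind, such as the PA28 subunits Psme1 to Psme3 and PA200 (Psme4), can cap the core in place of the 19S particle.

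Values are intensities on a linear scale, rescaled so that the arrays of a chip share 1 trimmed mean. Each array has values below 0, and the size of the value at its 1st percentile was taken as the noise bound. A value over the bound is called above noise. The chip A bounds were 1166 (pancreas), 1065 (muscle), 295 (liver), 258 (hypothalamus) and 389.6 (adipose-labelled sample). Those of chip B were 2606, 1638, 792, 649 and 918 in the same order. A level under 1166 on chip A could therefore be read in liver and not in pancreas, and the tissues are compared with this in view. Each label was borne out by its own markers: 6 of 8 pancreas, 8 of 9 muscle, 6 of 8 liver, 7 of 8 hypothalamus and 6 of 7 adipocyte probe sets were at least 2-fold higher in their tissue than in any other. The liver marker Alb was an exception, with 26258 in pancreas and 18124 in liver. Of 6 probe sets for genes of dividing cells none was 2-fold higher in the adipose-labelled sample, and 1, of Cdk1, was above noise there at 426. Such a call had to be 2-fold over the pancreas bound as well, so a gene of lower level could not be called. The preconfluent state in the title was therefore not tested. Muscle was highest for 4 of the 6, of which 1 was above noise, Cdk1 at 1864.

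Of the 97 member probe sets, 9 were above noise in all 5 tissues and 19 in none. By tissue, 13 were above noise in pancreas, 30 in muscle, 60 in liver, 68 in hypothalamus and 51 in the adipose-labelled sample. Those are 13.4%, 30.9%, 61.9%, 70.1% and 52.6% of the members, against 14.6%, 17.0%, 33.2%, 39.5% and 32.2% of all probe sets with 1 gene. A member was called for a tissue where its value was above noise and at least 2-fold over each of the other 4 tissues, with any lower value there raised to that array's bound. Pancreas had 1 called member (2.80% of all probe sets), muscle 2 (1.96%), and liver (2.56%), hypothalamus (1.83%) and the adipose-labelled sample (1.14%) none. These counts are near or under the background shares. By a second rule, a value at least 4 times the highest other tissue after low values were raised to the chip's floor (174.8 or 122.5), 2 members were called for pancreas (3.05%), none for muscle (1.64%), 1 for liver (2.63%), 3 for hypothalamus (2.23%) and none for the adipose-labelled sample (1.19%). The called members were Psmb10 for pancreas by both rules, Psme4 and Ube2s for muscle, and by the second rule alone Uba7 for pancreas, Psmb9 for liver and Ube2d2a, Ube2o and Usp5 for hypothalamus.

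The constitutive proteasome read lowest in pancreas. Among members above noise in all 4 other tissues, 20 of 27 (74.1%) had their lowest value in pancreas, against 33.6% of 910 probe sets. This choice asked for high values in the other 4 tissues and not in pancreas, whose values were taken as read. The count therefore leans towards a low pancreas, for the 910 as for the members. With pancreas values under the bound raised to it, 16 of the 27 were still lower in pancreas than in every other tissue, against 16.3% of those 910, and for 4, Psma6, Psmb3, Psmb4 and Psmd4, every other tissue was at least 2-fold higher, against 2.53%. By part of the complex, this choice took in 4 of 9 alpha, 7 of 8 constitutive beta, 2 of 6 19S ATPase and 7 of 14 19S non-ATPase probe sets. With values as read, pancreas was lowest for 4 of 4 alpha and 7 of 7 constitutive beta probe sets. It was lowest for 2 of 2 19S ATPase and 3 of 7 19S non-ATPase probe sets, against 33.6% of the 910. With pancreas values under the bound raised to it, Psma2, the dimmer Psmb3 probe set and Psmd12 dropped out of these. Of the 30 members above noise in muscle, 29 read lower in pancreas than in muscle (70.0% of 1283 probe sets) and 22 read lowest in pancreas (29.5%). These members were chosen by a high muscle value, and pancreas values under the bound were taken as read. Both counts therefore lean towards a low pancreas. For the other tissues few members could be counted by the first rule, above noise in the other 4. Muscle was the lowest for 3 of 12 members (25.8% of all), liver for 2 of 9 (34.8%), hypothalamus for 1 of 9 (31.1%) and the adipose-labelled sample for 2 of 9 (13.5%).

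**Figure D1:**
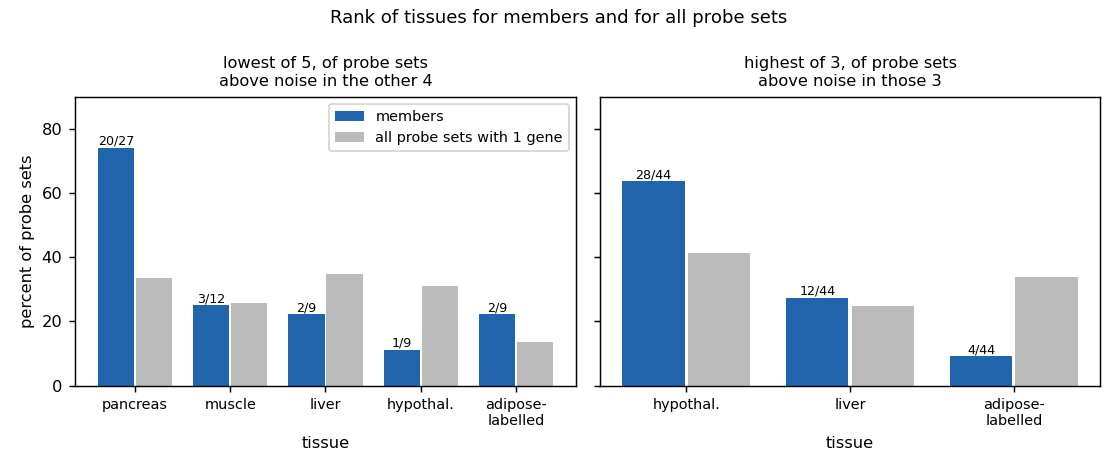
Percent of member probe sets (blue, with counts) and of all probe sets with 1 gene (grey) for which a tissue read lowest of 5 (left, probe sets above noise in the other 4) or highest of 3 (right, probe sets above noise in liver, hypothalamus and the adipose-labelled sample). Pancreas was lowest for 20 of 27 members, and hypothalamus highest of 3 for 28 of 44.

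Levels of the arrays as a whole are given beside this. Over all 7542 probe sets the median log2 difference of pancreas from the other 4 tissues was 0.00, and pancreas had the smallest share above noise. Over the 549 probe sets above noise in all 5 tissues, which had to pass the high bounds of pancreas and muscle, the median log2 difference from the mean of the other 4 tissues was 0.44 in pancreas, 0.43 in muscle, -0.44 in liver, -0.29 in hypothalamus and -0.13 in the adipose-labelled sample, while over the 9 such members it was -0.28 in pancreas, 0.51 in muscle, -0.17 in liver, 0.15 in hypothalamus and -0.35 in the adipose-labelled sample. The 20 brightest probe sets held 13.4% of the summed positive signal of the pancreas array on chip A, against 17.8% in muscle and 5.39% to 7.63% in the other tissues. On chip B the shares were 24.2% in pancreas, slightly more in muscle, and 6.47% to 10.6% in the others, and the part of this in the order of the members was not tested. In whole tissue, fewer cells that hold a message and less of it per cell cannot be told apart.

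The alpha subunits form the outer rings of the core. Psma6 read 3129 in the adipose-labelled sample, 3054 in muscle, 2937 in hypothalamus, 2739 in liver and 817.5 in pancreas. Its 4 other tissues lay close together and the pancreas value was under the noise bound, so that they were at least 2.35-fold above it. The brighter Psma3 probe set read 2970.4 in muscle, 2345 in liver, 2201 in hypothalamus, 2037 in the adipose-labelled sample and 1089.7 in pancreas, while the dimmer was highest in liver at 767, with 585 in hypothalamus. Psma5 had 1674 in muscle, 1664 in hypothalamus, 1345 in liver, 1337 in the adipose-labelled sample and 473 in pancreas. In all these probe sets pancreas read lowest, under its noise bound, and the order of the others was close. For the dimmer Psma3 probe set that bound lay above the values of all tissues, so the place of pancreas cannot be read. Both Psma2 probe sets, on chip B, were highest in hypothalamus, one with 3792 in hypothalamus, 3363.5 in liver, 2778 in the adipose-labelled sample, 2512 in muscle and 523 in pancreas. Both Psma4 probe sets were instead highest in liver, and the brighter read 3036 in liver, 1721 in hypothalamus, 1566.5 in the adipose-labelled sample, 1405 in pancreas and 1050.3 in muscle, a 1.76-fold excess of liver over hypothalamus. Psma7 was above noise in 3 tissues, with 1422 in hypothalamus, 1389.9 in liver, 998 in the adipose-labelled sample, 315 in muscle and 307 in pancreas. All 9 alpha probe sets were above noise in liver, hypothalamus and the adipose-labelled sample, and the median of their log2 differences from the other tissues was -1.61 in pancreas, 0.28 in muscle, 0.86 in liver, 0.45 in hypothalamus and 0.21 in the adipose-labelled sample, against -0.14 to 0.00 over all probe sets. With values under an array's bound raised to it, the alpha median in pancreas was -0.24.

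The constitutive beta subunits line the inner rings. All 8 of their probe sets had their lowest value in pancreas, where 3 were above noise. Psmb6, the subunit that Psmb9 replaces, read 5074 in muscle, 4235 in liver, 3516 in hypothalamus, 2372 in the adipose-labelled sample and 1291 in pancreas. It had the widest span of the class among probe sets above noise in all 5 tissues, 3.93-fold between muscle and pancreas. Psmb7, the subunit that Psmb10 replaces, read 2006 in muscle, 1869.9 in hypothalamus, 1710.2 in liver, 1286 in the adipose-labelled sample and 913 in pancreas. Psmb4, a non-catalytic subunit, read 5389.9 in hypothalamus, 4555 in liver, 3749 in the adipose-labelled sample, 3549 in muscle and 1603 in pancreas, a span of 3.36-fold. Muscle led for the catalytic pair and hypothalamus for Psmb4, but each lead was small, 1.20-fold over the next tissue for Psmb6, 1.07-fold for Psmb7 and 1.18-fold for Psmb4. One Psmb3 probe set read 4038 in muscle, 3561 in the adipose-labelled sample, 3520.3 in liver, 3163 in hypothalamus and 1299 in pancreas, a span of 3.11-fold, while the dimmer one was highest in hypothalamus at 1322, with 1104 in muscle. Psmb2 read 2479 in hypothalamus, 2047.5 in liver, 1893 in the adipose-labelled sample, 1892 in muscle and 1166 in pancreas. Psmb1 was highest in hypothalamus by both probe sets, with 6069 in hypothalamus, 4743 in liver, 3542.5 in the adipose-labelled sample, 2878 in muscle and 1575 in pancreas on chip B, and with 1201.5 on chip A, where no other tissue was above noise. Muscle and hypothalamus shared the leads in this class. The class medians were -1.28 in pancreas, 0.40 in muscle, 0.29 in liver, 0.62 in hypothalamus and 0.06 in the adipose-labelled sample.

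**Figure D2:**
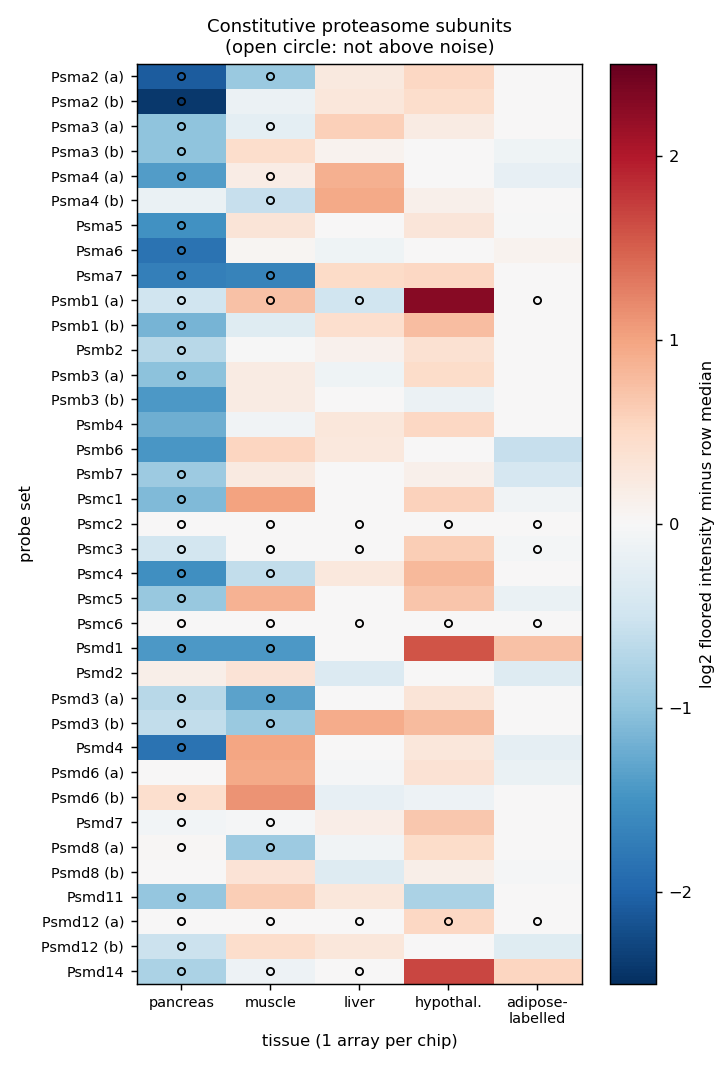
Log2 floored intensity of the 37 probe sets of constitutive 20S and 19S subunits, minus the median of its row, by tissue (columns, 1 array each per chip). The letters a and b tell probe sets of 1 gene apart, and open circles mark values not above noise. The pancreas column is blue for most 20S rows and mixed for Psmd rows. Pancreas is lowest for 27 of the 37 probe sets, against 2191 of all 7542, and 7 of the 37 are above noise there.

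The 19S cap was mixed. Among the ATPases, which unfold the substrate, Psmc5 read 6924 in muscle, 6092 in hypothalamus, 3790.4 in liver, 3376 in the adipose-labelled sample and 1953 in pancreas. Psmc1 read 2572.5 in muscle, 1921 in hypothalamus, 1285 in liver, 1217 in the adipose-labelled sample and 601 in pancreas, 1.34-fold higher in muscle than in hypothalamus. Psmc4 was above noise in 3 tissues, at 1090.1 in hypothalamus, 739 in liver and 620.0 in the adipose-labelled sample. Psmc3 was above noise in hypothalamus alone, at 369, and Psmc2 and Psmc6 in no tissue. The ATPase median was -0.95 in pancreas, 0.00 in muscle, -0.01 in liver, 0.68 in hypothalamus and -0.05 in the adipose-labelled sample. With values under an array's bound raised to it, the pancreas median was 0.89 and the hypothalamus median -0.20, and none of the 6 was above noise in pancreas.

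Among the non-ATPases, Psmd4, a ubiquitin receptor, read 6071 in muscle, 3757 in hypothalamus, 3077 in liver, 2637 in the adipose-labelled sample and 861 in pancreas. Muscle exceeded hypothalamus by 1.62-fold, and the lowest of the other tissues, the adipose-labelled sample, exceeded the pancreas bound by 2.26-fold. Psmd11, a scaffold subunit, showed another order, with 3109.7 in muscle, 2454 in liver, 2021 in the adipose-labelled sample, 1169 in hypothalamus and 1036 in pancreas. Hypothalamus lay here near the pancreas bound and far from muscle and liver. Psmd14, the deubiquitinase of the cap, read 2365 in hypothalamus, 1093 in the adipose-labelled sample, 748 in liver, 685 in muscle and 431 in pancreas. Only hypothalamus and the adipose-labelled sample were above noise, and hypothalamus was 2.16-fold higher of the 3 tissues with low noise. Psmd1, a large scaffold subunit, was also highest in hypothalamus, at 1418, with 785 in the adipose-labelled sample and 475 in liver.

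Not every cap subunit was low in pancreas. Psmd6 read 2896 in muscle, 1934 in hypothalamus, 1501 in pancreas, 1474 in liver and 1339 in the adipose-labelled sample by its bright probe set. Psmd8 read 1848 in muscle, 1604 in hypothalamus, 1449 in pancreas, 1428 in the adipose-labelled sample and 1163 in liver on chip A, but was highest in hypothalamus at 2681 on chip B, where muscle was not above noise. Psmd2, a scaffold subunit, read 1368 in muscle, 1196 in pancreas, 1073 in hypothalamus, 863 in the adipose-labelled sample and 843 in liver. In these 3, pancreas took a middle place and the spans were 2.16-fold, 1.59-fold and 1.62-fold. The median of the 14 non-ATPase probe sets was -0.36 in pancreas, 0.14 in muscle, 0.02 in liver, 0.54 in hypothalamus and -0.07 in the adipose-labelled sample. The pancreas median was 0.17 with values under an array's bound raised to it, and -0.73 with 1 probe set a gene. Psmd3 was highest in liver on chip B, at 3548 against 3207 in hypothalamus, and in hypothalamus on chip A, at 552 against 443 in liver. Psmd7 and Psmd12 gave small leads, to hypothalamus at 1464 and to muscle at 1632.5, and the second Psmd12 probe set was above noise in no tissue.

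Among members that passed the bounds, muscle and hypothalamus shared the high side. Among the 9 members above noise in all 5 tissues muscle was highest for 7, against 28.8% of 549 probe sets, hypothalamus for 1 (14.4%) and pancreas for 1 (39.0%), with none in liver (9.47%) or the adipose-labelled sample (8.38%). These 9 had to pass the high muscle bounds. Over all 97 members the median log2 difference of muscle was 0.00, as over all 7542 probe sets. Over the 3 tissues with low noise bounds, 44 members were above noise in each. Hypothalamus was the highest of those 3 for 28 (63.6%), against 41.4% of 1641 probe sets. Liver was highest for 12 (24.9% of all) and the adipose-labelled sample for 4 (33.7%). Scaled to the 75th percentile, hypothalamus was highest for 22 of 44 members, against 36.4% of all.

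The activators differed among themselves. Psme4 encodes PA200, an ATP-independent cap best known for the breakdown of acetylated histones in sperm cells and DNA repair. It read 3826 in muscle, 1218 in pancreas, 979.8 in liver, 569 in the adipose-labelled sample and 555 in hypothalamus. Muscle was 3.14-fold above pancreas and 6.89-fold above hypothalamus, the widest span of the 9 members above noise in every tissue, and Psme4 was 1 of 2 members called for muscle. Psme1, a PA28 subunit that interferon induces, read 1632 in liver, 1450.0 in the adipose-labelled sample, 1244 in muscle, 1215 in hypothalamus and 375 in pancreas. Its values above noise, in 4 tissues, lay close together, and pancreas was not above noise. Psme3, the nuclear PA28 subunit, read 402 in the adipose-labelled sample, 237 in hypothalamus, 192 in liver, 68 in muscle and -176 in pancreas on chip A, above noise in the first alone. On chip B it read 239 in hypothalamus, 123.5 in the adipose-labelled sample, 109 in liver, -51 in pancreas and -163 in muscle, none above noise. The RefSeq promoter of Psme4 (GRCm38.p6, chr11:30771525-30771824, plus strand) is shown because this gene had the clearest muscle excess. It holds 1 match, in capitals, to TGACNNNGC, the core of the antioxidant response element through which Nfe2l1 and Nfe2l2 act on proteasome genes, read on the minus strand at position -7 from the annotated start.

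Psme4: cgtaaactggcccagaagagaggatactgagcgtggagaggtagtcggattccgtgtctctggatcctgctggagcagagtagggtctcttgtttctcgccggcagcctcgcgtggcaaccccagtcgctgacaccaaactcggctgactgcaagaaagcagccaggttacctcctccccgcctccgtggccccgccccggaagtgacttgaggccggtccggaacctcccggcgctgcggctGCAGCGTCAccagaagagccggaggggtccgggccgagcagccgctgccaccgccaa

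That motif was found, on either strand of windows of 250 bases before to 50 after a start, for 9 of 58 member genes with a window, and for 3 of 22 genes of the constitutive proteasome, Psmb6, Psmc6 and Psmd12, against 14.0% of 27025 genes. These shares are near the background. Nfe2l1, which encodes a regulator of proteasome genes, read 4686 in muscle, 3222 in the adipose-labelled sample, 2392 in hypothalamus, 1554 in liver and 1241 in pancreas, the last not above noise. Nfe2l2 had another order, with 831 in the adipose-labelled sample and 514 in liver, and was not above noise in muscle at 358.

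Of the immune subunits, Psmb8 and Psmb9 read highest in liver and next in the adipose-labelled sample by all 4 probe sets. Psmb8 read 1021 in liver, 732.5 in the adipose-labelled sample, 364 in pancreas, 356 in muscle and 151 in hypothalamus on chip A. Its chip B probe set read 1545 in liver, 898 in the adipose-labelled sample, 101 in hypothalamus, -103 in pancreas and -109 in muscle. Liver was above noise in both, the adipose-labelled sample in the first and just under its bound in the second, and hypothalamus in neither. Psmb9 on chip A read 870.1 in liver, 148 in the adipose-labelled sample, -202 in hypothalamus, -324 in pancreas and -848 in muscle. On chip B it read 1548 in liver, 834 in the adipose-labelled sample, 722 in muscle, 99 in hypothalamus and -254 in pancreas. Liver alone was above noise, 2.23-fold and 1.69-fold over the higher of the bounds of hypothalamus and the adipose-labelled sample, and the chip A value was the liver call of the 4-fold rule. Pancreas and muscle could hold as much Psmb8 or Psmb9 as liver without being seen, since their bounds lay above the liver values on both chips. Both Psmb9 probe sets are of a design for gene families and may bind related messages.

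Psmb10 did not go with the others. It read 5731 in pancreas, 995 in liver, 909 in hypothalamus, 499 in the adipose-labelled sample and -861 in muscle. Pancreas was at least 5.38-fold above the other tissues, the largest fold among the 3 members called at 2-fold, while muscle was negative and liver and hypothalamus were alike. This rests on 1 probe set. Leukocyte markers are given beside it: of 19 probe sets for 15 genes, 6 were highest in pancreas, 2 of them above noise, Ptprc with 7267 in pancreas against 1837 in muscle and Laptm5 with 2330.5 in pancreas against 867 in the adipose-labelled sample, and 8 were highest in the adipose-labelled sample, 5 of them above noise. No leukocyte probe set was highest in liver. Over all 7542 probe sets, pancreas was highest for 1905, the adipose-labelled sample for 1079 and liver for 1060. The T and B cell markers Cd3e, Cd3g, Cd79a and Cd79b were above noise in no tissue. The B cell marker Ighm, by its brightest probe set, read 9890.2 in the adipose-labelled sample, 8464 in pancreas and 1016.5 in hypothalamus, all above noise. A second Ighm probe set was above noise in 4 tissues, though not in pancreas, and the other 3 in none. The summed level of the list on chip A was 12565 in pancreas, 5520 in muscle, 2956 in liver, 2785 in hypothalamus and 5916 in the adipose-labelled sample, and on chip B 10956, 3231, 5736, 2262 and 30109 in the same order. The part of leukocytes in the levels of Psmb10, Psmb8 and Psmb9 was not tested.

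The immune subunits were also set against the constitutive subunits on the same array. The floored log2 value of Psmb8 minus the mean of Psmb6 and Psmb7 was -1.40 in liver and -1.25 in the adipose-labelled sample, against -3.87 in hypothalamus. With the hypothalamus value at its noise bound, the difference between liver and hypothalamus was at least 1.91 log2 units, and that between the adipose-labelled sample and hypothalamus at least 2.06. For Psmb9 it was -1.63 in liver, against -3.87 in hypothalamus, a difference of at least 1.68 with the bound, and -3.32 in the adipose-labelled sample, where Psmb9 was not above noise. For Psmb10 it was -1.44 in liver, -1.50 in hypothalamus and -1.81 in the adipose-labelled sample, so these 3 were close, and 2.40 in pancreas. In pancreas Psmb7 was taken as read at 913, under the bound of 1166, and with Psmb7 at that bound the difference would be smaller. Psmb5, the partner of Psmb8, and Psme2 had no probe set under their names here. Over the 5 immune probe sets the median log2 difference from the other tissues was 2.32 in liver, 0.91 in the adipose-labelled sample, -0.58 in pancreas, -0.58 in muscle and -1.63 in hypothalamus. With values under an array's bound raised to it, it was 0.29 in liver, -0.65 in the adipose-labelled sample and 1.23 in pancreas, and with 1 probe set a gene it was 1.51 in liver.

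The members that act on ISG15, an interferon-induced protein like ubiquitin, are given together, with no list or test behind the grouping. Their levels lay under the pancreas and muscle bounds, except Ube2l6 in liver, so these tissues could not have shown them. Uba7, the E1 of ISG15, read 640.1 in the adipose-labelled sample, 555 in liver, 90.5 in hypothalamus, 76 in muscle and 41 in pancreas. Only the adipose-labelled sample and liver were above noise, and a second Uba7 probe set, which shares this target, was above noise in no tissue although the 4-fold rule called it for pancreas at 783.5. Ube2l6, the E2 of ISG15, read 1290.2 in liver, 436 in the adipose-labelled sample, 215 in hypothalamus, -25 in pancreas and -131 in muscle. Liver was 2.96-fold above the adipose-labelled sample and at least 1.11-fold above all 4 tissues. This rests on 1 probe set of the design for gene families. Usp18, which removes ISG15, was above noise in liver alone, at 313, just over the bound of 295. Isg15 itself, which is no member, read 878 in liver, under noise in the other 4 tissues.

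**Figure D3:**
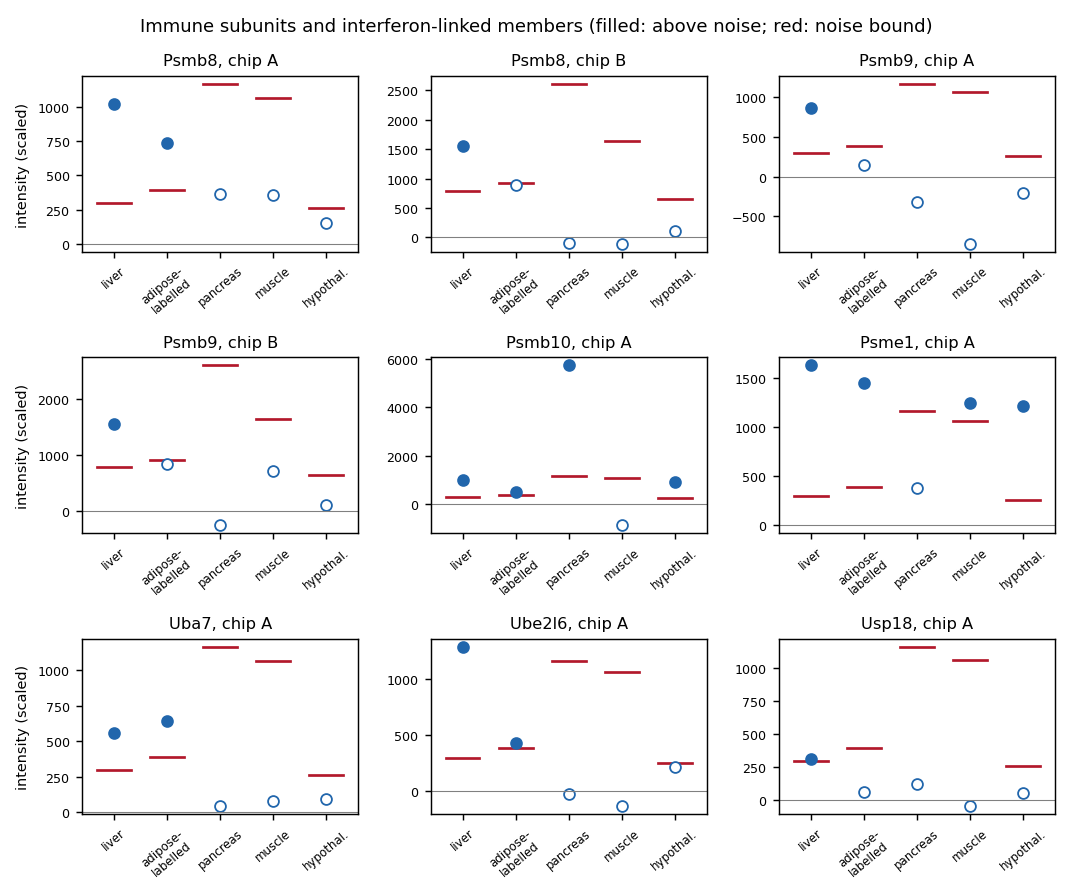
Scaled intensity (linear axis) of the immune subunits, the activator Psme1 and the ISG15 enzymes Uba7, Ube2l6 and Usp18 in 5 tissues with 1 array each. Filled points are above the array's noise bound, drawn as a red line. Liver is the highest filled point for Psmb8, Psmb9, Psme1, Ube2l6 and Usp18, the adipose-labelled sample for Uba7 and pancreas for Psmb10.

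A list of genes of antigen presentation and of interferon responses was also highest mostly in liver and the adipose-labelled sample. It mixes partners of the immune subunits with the interferon genes Gbp2, Ifit1, Ifit3, Irf1, Irf9 and Isg15, and the counts cover both kinds. Of 17 probe sets for 12 genes of that list, 8 were highest in liver, 7 of them above noise, and 4 in the adipose-labelled sample, 3 of them above noise. Pancreas was highest for 5, 1 of them above noise, and none was highest in hypothalamus or muscle. Over all 7542 probe sets, liver was highest for 1060, the adipose-labelled sample for 1079 and pancreas for 1905. Those highest in liver and above noise include several for the MHC class I genes H2-D1 and H2-K1. These and the B2m probe set are of a design for gene families and may bind related messages. B2m, the light chain of MHC class I, read 24597 in liver and 20744 in the adipose-labelled sample, and from 1398 to 1602 in the other 3. Of those 3, hypothalamus alone was above noise. Tap1, the peptide transporter encoded next to Psmb9, was above noise in liver alone, at 464. Tapbp, which loads peptides, read 7932 in the adipose-labelled sample, 5682.5 in liver, 4224 in muscle, 1684 in hypothalamus and 1289 in pancreas. The median of the list was 0.96 in liver, 0.94 in the adipose-labelled sample, -0.23 in pancreas, -0.42 in muscle and -1.23 in hypothalamus. Irf1, a transcription factor of interferon responses, ran otherwise, with 2273.5 in pancreas, 2060.4 in muscle, 1039.7 in liver, 944.5 in the adipose-labelled sample and 331 in hypothalamus.

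The RefSeq promoters of Psmb8 (GRCm38.p6, chr17:34197945-34198244, plus strand) and Psmb9 (chr17:34187281-34187580, minus strand) are shown because these neighbours in the MHC region both read highest in liver. They were searched for the core of the interferon-stimulated response element, on both strands, and neither holds a match, so no letters are in capitals.

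Psmb8: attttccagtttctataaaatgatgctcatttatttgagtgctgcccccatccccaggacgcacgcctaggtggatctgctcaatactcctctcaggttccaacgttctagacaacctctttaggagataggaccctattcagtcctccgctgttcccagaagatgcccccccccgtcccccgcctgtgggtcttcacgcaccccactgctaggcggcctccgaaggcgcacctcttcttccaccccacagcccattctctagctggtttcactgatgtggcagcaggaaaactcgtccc

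Psmb9: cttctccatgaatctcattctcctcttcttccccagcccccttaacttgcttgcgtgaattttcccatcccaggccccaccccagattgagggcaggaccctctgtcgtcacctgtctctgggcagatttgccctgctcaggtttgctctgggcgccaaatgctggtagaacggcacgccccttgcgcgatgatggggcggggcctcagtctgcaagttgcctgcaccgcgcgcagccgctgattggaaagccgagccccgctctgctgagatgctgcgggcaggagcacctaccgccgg

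That core was in none of the 3 windows of immune genes and in 5 of 58 member genes, among them Psme1 with a match starting at base 10 of the transcript, against 3.99% of 27025 genes.

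Conjugating enzymes read highest in hypothalamus or muscle for most probe sets. Of 18 probe sets for 14 genes, 8 were highest in hypothalamus, 6 in muscle, 3 in liver and 1 in pancreas, and 12 were lowest in pancreas. Over all 7542 probe sets, hypothalamus was highest for 1591, muscle for 1907, liver for 1060 and pancreas for 1905, and pancreas was lowest for 2191, so the muscle count is close to its background. Ube2s, which extends chains for the anaphase-promoting complex, was the other member called for muscle and read 4506 in muscle, 1650.1 in hypothalamus, 1344.5 in the adipose-labelled sample, 1278 in liver and 843.5 in pancreas. Muscle was 2.73-fold above hypothalamus. Ube2b, an E2 known in muscle wasting and DNA repair, read 2802 in muscle, 1651 in hypothalamus, 839.9 in liver, 661 in the adipose-labelled sample and 403 in pancreas. Muscle, hypothalamus and liver were above noise, and pancreas, with a bound of 2606, was not. Ube2r2, an E2 of cullin ligases, read 3634 in muscle, 3416.5 in liver, 2517 in the adipose-labelled sample, 2323 in hypothalamus and 2146 in pancreas, a span of 1.69-fold over 5 tissues above noise. Ube2c, the E2 that works before Ube2s on mitotic targets, and Ube2t, of DNA crosslink repair, were above noise in no tissue.

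Several E2 genes were read best in hypothalamus. Ube2e1 read 2006 in hypothalamus, 1381 in muscle, 863 in the adipose-labelled sample, 724 in liver and 476 in pancreas. Only hypothalamus was above noise, at least 2.18-fold over liver and the adipose-labelled sample. Ube2e3 was highest in hypothalamus by both probe sets, at 865 on chip A, at least 2.22-fold over those 2 tissues, and at 822 on chip B. Ube2d2a, a broad-range E2, was above noise in hypothalamus alone, at 759.9, where the 4-fold rule called it. Ube2o was called by that rule with 1059 in hypothalamus on chip B, but pancreas read -4629.5 there, and its other probe set was under noise in all tissues. The hypothalamus values of Ube2d2a and Ube2o lay under the pancreas and muscle bounds, so those tissues could hold as much without being seen. Of the 7 members at least 2-fold higher in hypothalamus than in liver and the adipose-labelled sample (6.25% of all probe sets), 2 were E2 genes, Ube2e1 and Ube2e3. Liver had 2 such members (4.57%), Psmb9 and Ube2l6, and the adipose-labelled sample none (4.42%).

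For 2 E2 genes the probe sets gave different orders. Ube2l3, an E2 for HECT and RBR ligases, read 3663 in hypothalamus, 1941 in liver, 1874 in muscle, 1019.5 in the adipose-labelled sample and -979 in pancreas by its bright probe set. Its other probe set was highest in muscle at 2004, with 908 in hypothalamus. Ube2h was highest in liver at 678.5 by one probe set, with 209 in hypothalamus, and by the other in hypothalamus at 1250.2, with 1171 in liver. Of 22 member genes with several probe sets, 14 had more than 1 whose highest value was above noise, and these gave the same highest tissue for 7 genes and different ones for 7. An order of tissues read from 1 probe set is therefore uncertain, and not only where the leading values are close. One Usp33 probe set read 1516 in hypothalamus, at least 3.89-fold over liver and the adipose-labelled sample. The other read 1517 in pancreas, 509.5 in the adipose-labelled sample and 396 in hypothalamus.

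**Figure D4:**
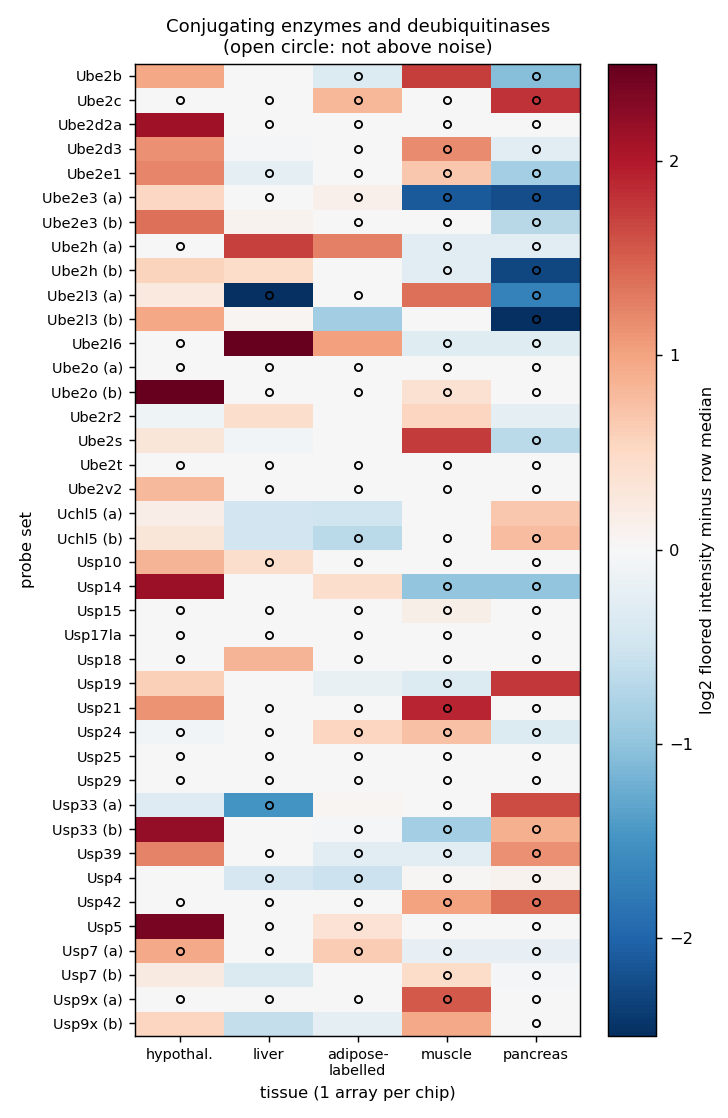
Log2 floored intensity of the 40 probe sets of conjugating enzymes and deubiquitinases, minus the median of its row, by tissue (columns, 1 array each per chip). The letters a and b tell probe sets of 1 gene apart, and open circles mark values not above noise. Hypothalamus holds the highest value for 16 of the 40, against 1591 of all 7542 probe sets, and pancreas has 4 values above noise.

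Of the 22 deubiquitinase probe sets, for 18 genes, 8 were above noise in no tissue. Usp14, the proteasome-bound enzyme that trims ubiquitin from substrates and whose loss impairs synapses in mice, read 1524 in hypothalamus, 470.3 in the adipose-labelled sample, 346 in liver, -135 in muscle and -570.4 in pancreas. Hypothalamus was 3.24-fold above the adipose-labelled sample, and at least 1.31-fold above all 4 tissues. Usp5, which recycles unanchored ubiquitin chains, was above noise in hypothalamus alone, at 900.1, at least 2.31-fold over liver and the adipose-labelled sample. The pancreas and muscle bounds lay above that value, so those tissues could hold as much Usp5 without being seen. One Usp33 probe set was highest in hypothalamus at 1516, at least 1.30-fold above the other tissues, but the other was highest in pancreas at 1517, with 396 in hypothalamus. Usp9x, an X-linked enzyme, read 2091.5 in muscle, 1568.5 in hypothalamus, 1078 in pancreas, 923 in the adipose-labelled sample and 709 in liver.

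A few deubiquitinases were highest in pancreas. Uchl5, which binds the proteasome cap, read 1853 in pancreas, 1306 in hypothalamus, 1163.5 in muscle, 840.2 in liver and 827 in the adipose-labelled sample. All 5 values were above noise and pancreas was 1.42-fold above hypothalamus, so this partner of the cap had another order than the core subunits. Usp19, an enzyme with forms anchored in the endoplasmic reticulum, read 1883 in pancreas, 846 in hypothalamus, 557 in liver, 488 in the adipose-labelled sample and 438 in muscle. Pancreas was at least 1.77-fold above the other tissues. Over the class, 7 probe sets were highest in pancreas, 3 of them above noise, and 8 in hypothalamus. Over all 7542 probe sets, pancreas was highest for 1905 and hypothalamus for 1591. The median log2 difference was -0.02 in pancreas and 0.23 in hypothalamus for deubiquitinases, and -0.99 in pancreas and 0.91 in hypothalamus for conjugating enzymes. With values under an array's bound raised to it, these became 1.41 and -0.76 for deubiquitinases and 1.08 and -0.31 for conjugating enzymes, so neither class order can be told from the noise.

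Assembly chaperones, which build the core and base and leave before the proteasome is complete, had 5 probe sets. Psmg1 was above noise in muscle at 1768, in liver at 969 and in hypothalamus at 934. Psmd5 was above noise in hypothalamus at 1606 and liver at 1442, Psmd9 in liver at 1015, and Psmg3 in no tissue. Psmg4 lay between 319 and 497 in all 5 tissues, above noise in 3. Among activating enzymes, Uba1y, the Y-linked form of the ubiquitin E1, was above noise in no tissue of these female mice. The ubiquitin gene Ubb, the E1 Uba1, the muscle ligases Trim63 and Fbxo32, Uchl1 and Uchl3, and every Ube3 ligase had no probe set with a single such name and were not analysed here.

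Of 71 other genes of the pathway, 43 were measured, by 60 probe sets. Muscle was highest for 24 of them, 11 above noise, hypothalamus for 22, 19 above noise, pancreas for 7, 1 above noise, liver for 4 and the adipose-labelled sample for 3. Over all 7542 probe sets, muscle was highest for 1907, hypothalamus for 1591, pancreas for 1905, liver for 1060 and the adipose-labelled sample for 1079. The median of the 60 was -0.34 in pancreas, 0.27 in muscle, -0.23 in liver, 0.24 in hypothalamus and 0.00 in the adipose-labelled sample. Called in muscle were 2 of the 60 (1.96% of all probe sets), Senp3, a SUMO protease, at 3.20-fold over liver, and Cops3, of the COP9 signalosome, at just over 2-fold. A second Senp3 probe set had only 1.23-fold more in muscle than in hypothalamus, and the second of Cops3 was above noise in no tissue. Called in hypothalamus was 1 (1.83%), Rnf14, a ligase, at least 2.85-fold. Sqstm1, a ubiquitin receptor of autophagy, read 18739 in muscle, 11136.5 in liver, 10366 in hypothalamus, 7848 in the adipose-labelled sample and 3482 in pancreas. Skp1, of cullin ligases, read 9576 in hypothalamus, 4894 in liver, 2959 in the adipose-labelled sample and 1863 in muscle. The muscle atrophy list had 7 probe sets for 6 measured genes, of which none was called in muscle and 1, of Ctsl, a lysosomal protease, in liver, at 2.01-fold (2.56% of all). Highest and above noise were 2 in liver, 1 in pancreas and 1 in muscle, Foxo3 at 2394. Foxo3 could not be called, since the pancreas bound on its chip was 2606.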

How the data were processed

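RNA of 5 tissues was measured on 10 arrays, 1 per tissue on each of 2 chips. The files hold the deposited intensity of each probe set on a linear scale, with values below 0; the software is not given in the sources used here. Per the labels, 10 µg of total RNA was labelled with biotin. Control probe sets were left out, and the arrays of a chip were rescaled to a common trimmed mean, with 2% left out at each end. Values under the floor, the median of the chip's 5 array medians, were raised to it before log2 differences were taken. Genes were named from the platform annotation, for probe sets with 1 symbol. By rule the text gives values for the immune subunits, activators and catalytic subunits, members called at 2-fold or 4-fold, in each class the 3 probe sets above noise in all 5 tissues with the largest span and the 1 with the smallest, and genes whose probe sets disagree. Other members that are named were chosen after their values were seen. The members and lists were chosen with earlier results of these data known. With 1 array a tissue no test was possible, and no p-value is given. Promoters were RefSeq windows of GRCm38.p6, found for 58 of 75 genes. Python 3.11.15, numpy 2.4.6 and pandas 2.3.3 were used, and the calling steps were tested on simulated data. Some items, a promoter motif among them, are not reported here.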

Additional observations from a re-analysis of the deposited data

How the results depend on the processing

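Over 36 results, 259 alternatives were run: 219 stayed within 1.5-fold of the reported value, 31 moved by more and 9, all class medians with each array's bound as floor, changed sign. Leaving out the adipose-labelled or muscle arrays, rescaling the 4-fold counts, and all alternatives for the counts of lowest and highest tissues were chosen after seeing the data. No paired analysis was possible because each tissue has 1 array per chip. Scaling to the 75th percentile shifted log2 values by -0.16 and -0.45 in pancreas and by 0.30 and 0.40 in liver (chips A and B). Members above noise in all 5 tissues numbered 21 with quantile normalization, 17 with the bound at the 2nd percentile and 1 at the 0.5th. The 2-fold count was 3 in pancreas with quantile normalization, 2 at the 2nd percentile and 2 at 1.5-fold, 0 in muscle at 4-fold and 4 without the pancreas arrays, 1 in liver with 75th percentile scaling (Psma4), quantile normalization (Ube2l6) or 1.5-fold, and 2 in hypothalamus with quantile normalization (Usp14 and Usp33). The 4-fold count in pancreas was 1 with either other scaling. Without the muscle arrays, pancreas was lowest for 32 of 44 members, against 40.1% of all.

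With each array's bound as floor, the pancreas median was -0.24 for alpha subunits, 0.89 for ATPases, 0.17 for non-ATPases, 1.08 for conjugating enzymes, 1.41 for deubiquitinases and 1.23 for immune subunits. The hypothalamus median was then -0.20 for ATPases, -0.31 for conjugating enzymes and -0.76 for deubiquitinases, and the immune median 0.40 in muscle, 0.29 in liver and -0.65 in the adipose-labelled sample. Raising the floor to each chip's 75th percentile gave medians of -0.15 for ATPases and -0.23 for conjugating enzymes in pancreas, 0.17 for conjugating enzymes in hypothalamus, and 0.70 in liver, -0.40 in hypothalamus and 0.10 in the adipose-labelled sample for immune subunits. Without probe sets of relaxed design the immune median was -1.63 in muscle and 1.51 in liver, and 1.51 in liver with 1 probe set a gene. Against the constitutive subunits, with that higher floor, Psmb8 differed from hypothalamus by 0.70 in liver and 0.84 in the adipose-labelled sample, and Psmb9 by 0.47 in liver. For Psmb9 in the adipose-labelled sample the difference was 0.55, and 1.15 with the noise bound, where both values are bounds and show no Psmb9 difference. Signal close to the noise bound, above all on the pancreas and muscle arrays, limits every class median.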
